A study of Mus musculus with 9 samples.

Results

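The major histocompatibility complex (MHC) and antigen presentation genes measured here were every array probe named for the mouse H2 complex, together with B2m, Tap1, Tap2, Tapbp, Cd74, Psmb8 and Psmb9. They came to 66 probes for 43 gene names among 41174 distinct probes, and were taken by a rule on probe names that uses no measured value. Ciita, Nlrc5 and Erap1 were sought under those names and had no probe. Arrays with a colour for the sample and a colour for a reference compared L3/L4 dorsal root ganglia (DRG), the clusters of sensory neuron cell bodies beside the spinal cord, from 4 uninjured and 5 injured samples of adult mice. Injury was transection of the sciatic nerve, and the DRG were taken 3 days later. All 9 samples were Cre-negative (cre.neg) and wild type for Jun (jun.wt). The study's own text also names an earlier time and a single ganglion level, and the labels and methods were followed here. The source label of the control samples also names the transection, so groups follow the treatment label. Strain, sex, and the number of mice behind each RNA were not given in the sources used here, so p-values measure the spread between these samples, which may be technical. Each value is a log2 ratio of DRG RNA, labelled with Cy5, over a common mouse reference RNA, labelled with Cy3. A negative ratio therefore means less signal than in the reference, and ratios of different genes cannot be ranked as levels.

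MHC class I molecules display peptides made inside the cell. A heavy chain pairs with the light chain beta-2-microglobulin, and the peptide is cut by the proteasome, pumped into the endoplasmic reticulum by the TAP transporter and loaded with the help of tapasin. MHC class II molecules are pairs of alpha and beta chains that display peptides from material taken up by the cell, guided by the invariant chain and by the exchange factor H2-DM. Class I is found on most nucleated cells and is raised by interferons, whereas class II is mainly carried by macrophages, dendritic cells and B cells. In DRG, resident macrophages lie around the neurons, and resting neurons are known for low class I.

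The injury label and the tissue label both matched their markers. Atf3, a transcription factor gene induced by axon injury, differed by 5.14 on the log2 scale, and the sensory neuron gene Prph was well above background on every array. Of 31186 probes tested, 7338 passed an adjusted p of 0.05 in limma, 3275 higher and 4063 lower after injury. Some injured arrays stood apart by markers of muscle, macrophages and blood cells, and the origin of these differences was not tested. Muscle markers averaged 3.56 and 1.78 above the uninjured mean on injured arrays 4 and 2, against -0.18 to 0.29 on the other injured arrays. Macrophage markers averaged 0.93 and 0.86 on injured arrays 2 and 5, against 0.06 to 0.38 on the other injured arrays. Granulocyte and red blood cell markers were also highest on injured array 2, at 2.56 and 1.79. Red blood cell markers were next highest on injured array 5, at 1.23. The arrays lay on 3 slides. One slide held 3 uninjured arrays, another held 2 injured arrays, and only the slide with uninjured array 1 and injured arrays 1, 2 and 5 held both groups, so the within-slide values below compare those 4 arrays.

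After injury, 14 of 29 tested class I heavy chain probes and both probes of the immunoproteasome subunit Psmb8 were called modestly higher, 1 class I heavy chain probe was called lower, and no class II chain passed the test. Of the 54 member probes bright enough to test, 17 were called higher, in 12 genes, and 1 was called lower. That is 31.5% called higher, against 10.5% of all probes tested (23.5% in either direction, 13.0% lower). The share depended on the processing and on single arrays: it was 5.6% against 4.2% of all probes with each array centred on its median in place of the loess correction, and 14.8% against 7.9% without uninjured array 1. The changes were small, with called rises between 1.19-fold for H2-Q1 and just under 1.5-fold for Psmb8. Of the 17 higher probes, 14 were class I heavy chains, 2 were Psmb8 and 1 was H2-Oa. Class I heavy chain probes can bind RNA of one another. These counts and shares of probes and genes may therefore hold the same signal read more than once. The lowest injured array was above the highest uninjured one in 12 of the 54 tested (22.2%), against 10.1% of all probes tested. In whole DRG, more RNA per cell and more cells of a type that carries the RNA cannot be told apart.

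**Figure D1:**
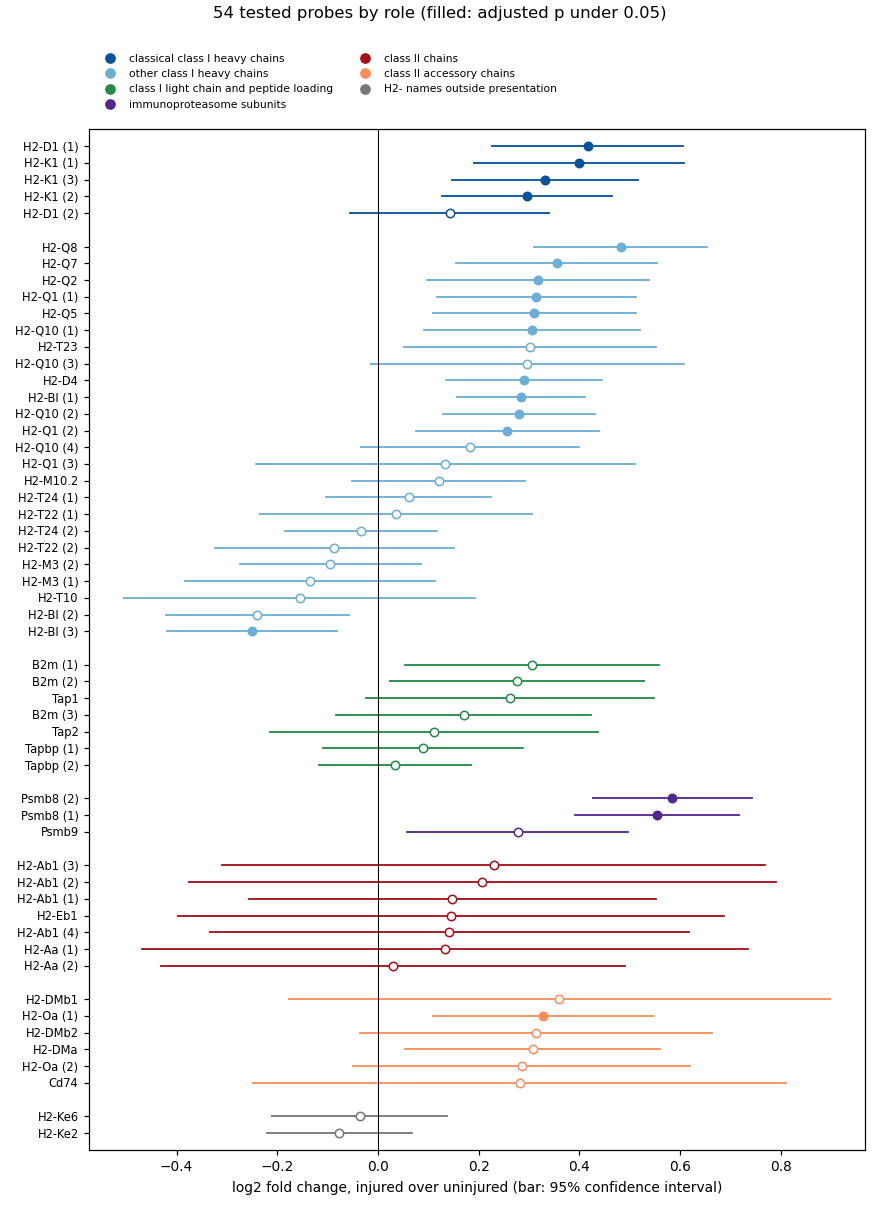
Log2 fold change (injured over uninjured, x axis) of the 54 tested probes, one per line and grouped by role, with 95% confidence intervals. Filled points passed an adjusted p of 0.05, and numbers in brackets rank the probes of 1 gene by brightness. The filled points gather in the class I heavy chains and Psmb8, and the intervals of the class II chains all span 0.

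The classical class I heavy chains, which present peptides to cytotoxic T cells, rose in 4 of 5 probes. For H2-K1, the brightest probe read -1.61, -1.65, -1.54 and -1.42 on the 4 uninjured arrays and -1.21, -1.04, -1.38, -1.22 and -0.92 on the 5 injured arrays. The groups did not overlap, although injured array 3 came close to the highest uninjured array. The log2 difference was 0.40 ± 0.0946 (SE; 4 and 5 arrays), or 1.32-fold, with an adjusted p of 0.0114 in limma. The other H2-K1 probes differed by 0.33 and 0.30, also called. This probe is printed 10 times on each array, and its repeated spots varied with an SD of 0.0235 to 0.0382, far below the pooled SD of 0.151 between arrays of a group.

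For H2-D1, the brightest probe read -1.32, -1.26, -1.34 and -1.18 on uninjured arrays and -0.88, -0.75, -1.07, -0.94 and -0.65 on injured arrays. The groups were again apart, with injured array 3 the lowest of its group. The difference was 0.42 ± 0.0860 (SE), 1.33-fold, with an adjusted p of 0.00553. A dimmer probe carrying the same name differed by only 0.14 (adjusted p = 0.289). The coordinates in the files put these probes 996.838 kb apart on chromosome 17, so they may not read the same locus. Class I heavy chains are close relatives in sequence, and a probe named for one can bind RNA of another, so the gene names within this group are uncertain.

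**Figure D2:**
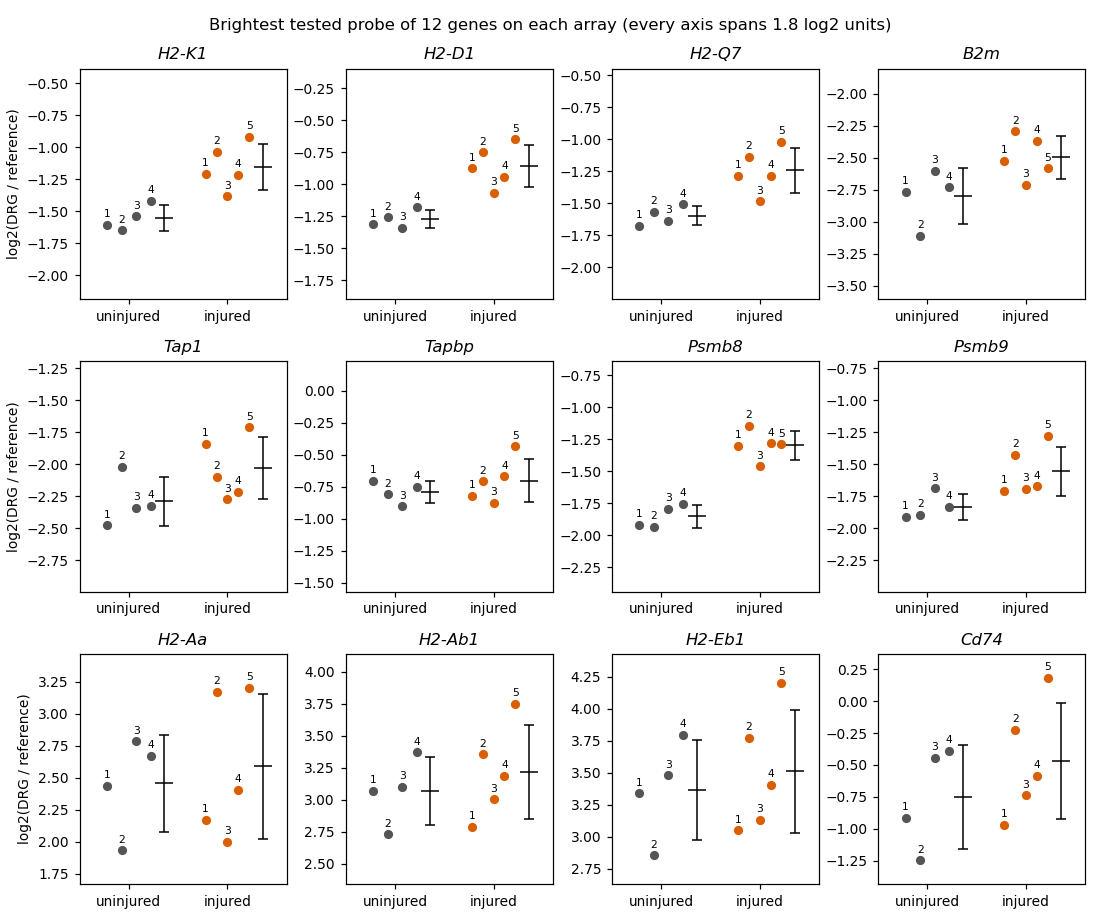
Log2 ratio of DRG over reference RNA (y axis) for the brightest tested probe of 12 genes, with a numbered point per array, uninjured in grey and injured in orange, and bars for mean ± SD. H2-K1, H2-D1, H2-Q7 and Psmb8 show no overlap between the groups, while the class II chains H2-Aa, H2-Ab1 and H2-Eb1 spread widely in both groups.

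The upstream sequences of H2-K1, H2-D1 and H2-Q7 share a feature that the selection by name did not use. Enhancer A of class I genes holds a binding site for NF-kappaB factors, searched for here as GGGGATTCCC on both strands of RefSeq promoters (250 bases before to 50 after each start). It was found in 3 of the 32 member genes with a promoter entry, and in 35 of 32851 promoters in all (0.107%). Of the 32 member genes tested, which are not the same set as the 32 with a promoter entry, 12 had a probe called higher. The 3 genes with the site were among them. They are close relatives whose probes can bind RNA of one another, so they are not 3 separate readings. A link between the site and the rise was not tested. The 200 bases before each start (GRCm38.p6, from RefSeq, read in the direction of the gene) are shown for these genes because the site is the same in each, with the site in capitals.
H2-K1, chr17:34000348-34000547, minus strand: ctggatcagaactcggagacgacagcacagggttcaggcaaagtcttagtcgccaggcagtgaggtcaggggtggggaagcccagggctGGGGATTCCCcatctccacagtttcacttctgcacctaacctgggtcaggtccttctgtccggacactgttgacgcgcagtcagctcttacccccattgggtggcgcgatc
H2-D1, chr17:35262894-35263093, plus strand: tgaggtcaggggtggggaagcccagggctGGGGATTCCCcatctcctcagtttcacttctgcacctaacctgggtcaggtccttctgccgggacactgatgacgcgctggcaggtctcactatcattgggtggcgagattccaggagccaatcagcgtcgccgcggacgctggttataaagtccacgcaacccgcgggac
H2-Q7, chr17:35438955-35439154, plus strand: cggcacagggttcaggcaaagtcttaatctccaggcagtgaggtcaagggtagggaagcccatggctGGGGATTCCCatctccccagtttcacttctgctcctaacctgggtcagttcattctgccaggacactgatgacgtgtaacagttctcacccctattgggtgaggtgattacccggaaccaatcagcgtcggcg
The site began 111, 171 and 133 bases before the annotated starts of H2-K1, H2-D1 and H2-Q7. Not every riser had it: in the entries of H2-Q2, H2-Q10 and H2-Oa these letters were not found. An interferon-stimulated response element, GAAANNGAAA, was searched for in the same way. It was found in 3 of the 32 member genes, B2m, H2-T22 and H2-T23, and in 3.44% of all promoters. None of those genes had a called probe. The search took only these exact letters, so a variant of the element would be missed. The lack of a match in H2-K1, H2-D1 or H2-Q7 therefore does not show that they lack such an element. A match describes the sequence and does not show a factor bound there.

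Among the other class I heavy chains, 24 probes of 14 genes were tested, with 10 called higher and 1 lower. Their names follow the files, which place the H2-Q5 probe beside H2-T10, away from the other Q probes on chromosome 17. H2-Q8 read -0.21, -0.18, -0.15 and -0.34 on uninjured arrays and 0.09, 0.28, 0.18, 0.35 and 0.41 on injured arrays. The groups were clearly apart, with a difference of 0.48 ± 0.0774 (SE) and an adjusted p of 0.00129. H2-Q7, which encodes a Qa-2 heavy chain, read -1.67, -1.56, -1.64 and -1.51, then -1.29, -1.14, -1.48, -1.28 and -1.02. Its difference of 0.35 ± 0.0905 (SE) had an adjusted p of 0.0163, and injured array 3 lay just above the highest uninjured array.

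H2-Q2 read -1.76, -1.69, -1.63 and -1.55 on uninjured arrays and -1.37, -1.18, -1.62, -1.40 and -1.11 on injured arrays. H2-Q5 read -1.57, -1.45, -1.49 and -1.41, then -1.17, -1.05, -1.44, -1.24 and -0.97. The brighter H2-Q1 probe read -1.03, -0.98, -0.998 and -0.93, then -0.71, -0.60, -0.90, -0.73 and -0.41. Injured array 3 overlapped the uninjured range for H2-Q2 and H2-Q5 but not for H2-Q1. Their differences were 0.32, 0.31 and 0.31, with adjusted p of 0.0417, 0.0313 and 0.0274. The brighter H2-Q1 probe maps 63.956 kb from the second one, which differed by 0.26 and was also called. H2-Q10, named for a secreted class I chain, was called with probes at 0.31 and 0.28, whose mean log2 Cy5 signal was 13.6 and 11.3. Its other probes, at 0.30 and 0.18, were far dimmer (6.65 and 6.61), not well above background on every array, and did not pass. Which class I RNA the bright probes read is uncertain. H2-D4 was called at 0.29.

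Across the 14 higher class I heavy chain probes, injured array 3 was the lowest injured array in 12, and the highest was array 2 in 6 and array 5 in 8. These are the arrays on which macrophage, endothelial, T cell and red blood cell markers were highest. The red blood cell markers averaged 1.79 and 1.23 there. Among the injured arrays, B cell markers were highest on the same arrays. Without injured arrays 2 and 5, the H2-K1 difference was 0.28 (adjusted p = 0.0385) and the H2-D1 difference 0.31 (adjusted p = 0.0184), both still called. In all, 7 of the 14 class I heavy chain rises were still called, H2-Q8 among them at 0.43. H2-Q7, H2-Q2, H2-Q5 and the brighter H2-Q1 probe were among those that no longer passed, at 0.24, 0.19, 0.20 and 0.20. Without injured arrays 2 and 4, highest in muscle markers, H2-K1 was at 0.38 and no longer called (adjusted p = 0.0638). H2-D1 was at 0.41 there and still called (adjusted p = 0.0349), and 6 member probes in all passed. The part of macrophage, endothelial, T cell, B cell or red blood cell RNA in the class I values was not tested.

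H2-Bl gave opposite directions within 1 name. A probe at -0.80, -0.77, -0.82 and -0.81 on uninjured arrays read -0.52, -0.39, -0.52, -0.56 and -0.58 on injured arrays, a rise of 0.28 ± 0.0573 (SE; adjusted p = 0.00484). Another read 0.43, 0.67, 0.36 and 0.44, then 0.08, 0.22, 0.29, 0.24 and 0.30, and fell by 0.25 on the log2 scale (adjusted p = 0.0367). The groups did not overlap for either probe, but the call of the falling one did not hold in 14 of 24 alternatives, among them the fit without uninjured array 1 (adjusted p = 0.0648). The remaining probe, at -0.24 (adjusted p = 0.0580), shares 30 bases with the one that fell and is no independent reading. All of them lie on unplaced sequence in the files, and the risen and fallen probes start 1.481 kb apart, so no direction is given for the gene.

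The remaining class I members stayed short of the threshold. H2-T23, which encodes Qa-1, a ligand of natural killer cell receptors, differed by 0.30 (adjusted p = 0.0806). H2-M3, which presents formylated bacterial peptides, read lower by both probes, at -0.13 and -0.09, and H2-T10 was at -0.16. The H2-T22 probes were at 0.04 and -0.09, the H2-T24 probes at 0.06 and -0.03, H2-M10.2 at 0.12 and the dimmest H2-Q1 probe at 0.13. H2-M1, H2-M9, H2-M10.1, H2-M10.3, H2-M10.4, H2-M10.5, H2-M10.6, H2-M11 and H2-T3, the thymus leukaemia antigen gene, were not well above background and were not tested.

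The light chain and the loading machinery did not pass, in 0 of 7 probes by limma, with 2 of 7 at an unadjusted p under 0.05. B2m read -2.77, -3.11, -2.60 and -2.73 on uninjured arrays and -2.52, -2.30, -2.71, -2.37 and -2.58 on injured arrays. The groups overlapped, with uninjured array 2 well below the rest, and the difference of 0.31 ± 0.114 (SE) had an adjusted p of 0.0788. The other B2m probes were at 0.28 and 0.17. H2-K1 changed by 0.09 more than B2m (exact permutation p = 0.492, adjusted 0.492 over 4 gene pairs). A change of B2m unlike that of H2-K1 was therefore not shown. Tap1, a TAP transporter subunit, read -2.48, -2.02, -2.34 and -2.32, then -1.84, -2.10, -2.27, -2.21 and -1.71. It differed by 0.26 (adjusted p = 0.177), with uninjured array 2 inside the injured range.

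Tap2, the partner subunit, read -2.22, -1.63, -1.88 and -1.81 on uninjured arrays and -1.69, -1.76, -1.95, -2.08 and -1.39 on injured arrays, with a difference of 0.11 (adjusted p = 0.645). Tapbp, which encodes tapasin, read -0.70, -0.81, -0.90 and -0.75, then -0.82, -0.71, -0.87, -0.67 and -0.43. Its difference was 0.09 with a 95% interval of -0.11 to 0.29, and its second probe was at 0.03. The peptide trimming gene Erap1 is on the array under its older name Arts1, outside the rule. That probe read at a mean of -1.78 in uninjured and -1.76 in injured DRG, a difference of 0.02 (adjusted p = 0.877).

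Psmb8 gave the largest change of any member. It encodes an inducible catalytic subunit that replaces a standard one in the immunoproteasome. Its brightest probe read -1.92, -1.93, -1.80 and -1.75 on uninjured arrays and -1.30, -1.15, -1.46, -1.28 and -1.29 on injured arrays. The gap between the groups was wider than the range of the uninjured arrays. The difference was 0.55 ± 0.0736 (SE), 1.47-fold, with an adjusted p of 0.000387, and an exact two-sided permutation test gave p = 0.00794, the smallest that 4 against 5 arrays allow. The second probe read -1.87, -1.84, -1.79 and -1.74, then -1.26, -1.08, -1.40, -1.25 and -1.14, and differed by 0.58 (adjusted p = 0.000225). On the slide holding both groups, with its 1 uninjured array, the differences were 0.67 and 0.70.

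Psmb9, the neighbouring inducible subunit gene, read -1.91, -1.90, -1.69 and -1.84 on uninjured arrays and -1.71, -1.43, -1.69, -1.67 and -1.28 on injured arrays. Uninjured array 3 fell within the injured range, and the difference of 0.28 ± 0.0990 (SE) had an adjusted p of 0.0674. Psmb8 changed by 0.28 more than Psmb9 (exact permutation p = 0.0397, adjusted to 0.159 over 4 gene pairs chosen after the values were seen). It changed by 0.29 more than Tap1 (exact permutation p = 0.119, adjusted 0.169 over the same pairs). Neither difference passed after adjustment.

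Class II chains were detected but none was called. Of 7 tested probes, 0 passed in limma and 0 were at an unadjusted p under 0.05, and every one was above the reference on every array. H2-Ab1, the beta chain of the I-A molecule, read 3.07, 2.73, 3.10 and 3.37 on uninjured arrays and 2.79, 3.35, 3.00, 3.18 and 3.75 on injured arrays. The groups overlapped almost fully, with a difference of 0.15 and a 95% interval of -0.26 to 0.55. Its other probes were at 0.21, 0.23 and 0.14. H2-Aa, the I-A alpha chain, read 2.44, 1.93, 2.79 and 2.67, then 2.17, 3.17, 1.999, 2.41 and 3.21, with a difference of 0.13 (interval -0.47 to 0.73) and a second probe at 0.03. For the brighter H2-Aa probe, the reference colour was well above background on only 3 of the 9 arrays, so its ratios rest on a faint reference signal.

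H2-Eb1, the beta chain of the I-E molecule, read 3.34, 2.86, 3.48 and 3.80 on uninjured arrays and 3.05, 3.77, 3.13, 3.41 and 4.21 on injured arrays. Its difference was 0.14 (interval -0.40 to 0.69). Its alpha chain partner H2-Ea was not well above background on any of the 9 arrays, with ratios of -0.05, 0.10, 0.09 and -0.25, then 0.05, 0.09, -0.08, 0.12 and 0.02, and was not tested. These intervals are wide enough to hold a rise as large as that of H2-K1, so the data do not show that class II stayed level. The difference between the H2-K1 and H2-Ab1 changes was 0.25 (exact permutation p = 0.127, adjusted 0.169 over the same 4 pairs), which did not pass.

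Class II and class I differed in their spread between arrays of a group. The median pooled within-group SD was 0.441 over the class II probes, 0.132 over the classical class I probes and 0.125 over all probes tested. Uninjured array 2 was the lowest uninjured array in 7 of 7 class II probes, and injured array 5 was the highest injured array in 6 of 7. H2-Ab1 repeated spots varied with an SD of 0.0555 to 0.122, against a pooled SD between arrays of 0.479 for that probe. The macrophage markers had an order alike, with uninjured array 2 lowest at -0.37 and injured arrays 2 and 5 highest. So did endothelial markers, with uninjured array 2 lowest at -0.30 and injured arrays 5 and 2 highest at 0.45 and 0.29. T cell markers were also highest on injured arrays 5 and 2, at 0.26 and 0.25. Their highest uninjured array was uninjured array 2, at 0.11. Red blood cell markers were highest on injured arrays 2 and 5, at 1.79 and 1.23, with uninjured array 3 lowest at -0.24. Of 12 macrophage markers 3 were called higher (25%, against 10.5% of all probes) and 1 lower (8.3%, against 13.0%). Aif1 was the largest rise at 0.90 and Ly86 the fall, at -0.49. Ptprc, C1qa, Tyrobp, Mrc1 and Cd68 differed by 0.31 to 0.82, at an unadjusted p under 0.05 in limma, without being called. Without injured arrays 2 and 5, the differences of H2-Ab1, H2-Aa and H2-Eb1 were -0.08, -0.27 and -0.17. The part of macrophage or other cell RNA in these values was not tested.

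**Figure D3:**
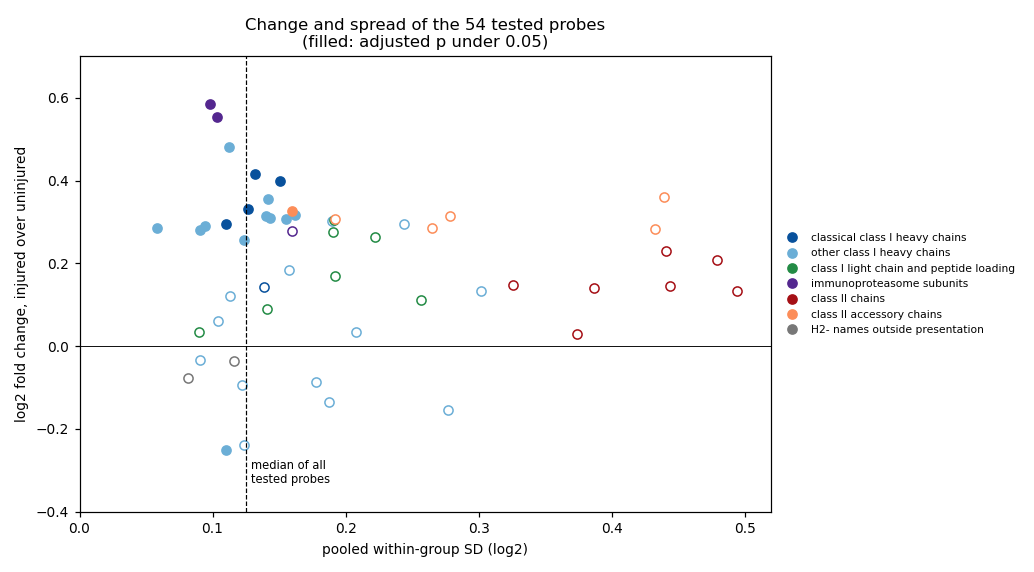
Log2 fold change (y axis) against pooled within-group SD (x axis, log2) for the 54 tested probes, coloured by role, with filled points past an adjusted p of 0.05. The dashed line marks the median SD of all tested probes, 0.125; class II chains lie far to its right and the called class I probes near it.

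Markers of other immune cells were also read. Of 8 dendritic cell markers, Clec9a, Siglech, Cd209a and Ccr7 were not well above background. Of the 4 tested, Zbtb46 (1.00) and Itgax (0.34) were called higher (50%, against 10.5% of all probes). Xcr1 (0.04) and Flt3 (-0.27) were not called, and a dimmer Itgax probe was at 0.06 (adjusted p = 0.480 in limma). Of 5 tested B cell markers, each by its brightest probe, 0 were called by limma and 0 were at an unadjusted p under 0.05, while a dimmer Ms4a1 probe had an unadjusted p of 0.0483. The B cell list averaged 0.64 and 0.40 above the uninjured mean on injured arrays 2 and 5, and 0.41 on uninjured array 4. T cell markers had 1 of 8 called higher, Lck at 0.63 (12.5%, near the 10.5% of all probes). The other T cell markers, from -0.06 for Cd8b1 to 0.26 for Cd3e, were not called.

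Of the class II accessory chains, 1 of 6 tested probes was called (16.7%, against 23.5% of all probes), and that call did not hold in 18 of 25 alternatives. H2-Oa encodes a chain of H2-DO, which restrains H2-DM. Its brighter probe read -0.69, -0.65, -0.72 and -0.65 on uninjured arrays and -0.68, -0.21, -0.42, -0.25 and -0.18 on injured arrays. Injured array 1 stayed among the uninjured ones, and the difference was 0.33 ± 0.0989 (SE; adjusted p = 0.0354). The second H2-Oa probe was at 0.29 (adjusted p = 0.210), and H2-Ob was not well above background.

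H2-DMa, a chain of the peptide exchange factor, read 0.56, 0.37, 0.49 and 0.36 on uninjured arrays and 0.63, 0.70, 0.44, 0.97 and 1.02 on injured arrays. Only injured array 3 fell within the uninjured range, and the difference of 0.31 had an adjusted p of 0.0782. Cd74, the invariant chain, read -0.91, -1.24, -0.45 and -0.39, then -0.97, -0.23, -0.74, -0.58 and 0.18. It shared the array order of the class II chains, and its difference of 0.28 had an interval of -0.25 to 0.81. H2-DMb1 and H2-DMb2 were at 0.36 and 0.31, neither called, and a second H2-DMb2 probe was not tested.

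The class II promoters carry an X box and a Y box, to which the RFX and NF-Y complexes bind and which recruit the class II transactivator. An X box core, AGNAACNGATG, was found in 2 member genes, H2-Eb1 and H2-DMb1, against 0.298% of all promoters. The Y box core ATTGG was found in 28 of 32 member genes and in 37.4% of all promoters. The H2-Eb1 sequence is shown because it holds this X box 92 bases before its start, with the match in capitals.
H2-Eb1, chr17:34305667-34305866, plus strand: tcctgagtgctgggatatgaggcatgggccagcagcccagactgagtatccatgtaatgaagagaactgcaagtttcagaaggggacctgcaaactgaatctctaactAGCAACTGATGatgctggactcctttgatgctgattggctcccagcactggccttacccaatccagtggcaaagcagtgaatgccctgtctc

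The transactivator gene itself, Ciita, is on the array as C2ta, outside the rule. That probe had a mean of 0.24 in uninjured and 0.49 in injured DRG, a difference of 0.25 (adjusted p = 0.374). No probe for Nlrc5, the class I transactivator, was found by name.

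The H2 names outside presentation stayed near 0. H2-Ke2, now Pfdn6, which encodes a prefoldin chaperone subunit, was at -0.08, and H2-Ke6, an enzyme gene within the complex, at -0.04. They lie in the same stretch of chromosome 17 as H2-K1.

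Of 25 other genes of the pathway tested, 1 was called higher and 3 lower, with a median of 0.06. These shares, 4% and 12%, were below those of all probes tested, 10.5% and 13.0%. The rise was the lysosomal protease gene Ctsb, at 0.23. Irf2, an interferon regulatory factor, fell by 0.55 on the log2 scale, the lysosomal protease Lgmn by 0.49 and the class II promoter factor Rfxap by 0.38. Ctss, the protease that trims the invariant chain, had the largest difference at 0.81 without passing (adjusted p = 0.0651), and Psmb10, the remaining immunoproteasome subunit, was at 0.06.

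Of 15 interferon-induced genes tested, 4 were called higher (26.7%, against 10.5% of all probes) and 0 lower, with a median of 0.25. Igtp, an interferon-inducible GTPase gene, had the largest rise at 0.76, followed by Oasl2 at 0.55, Gbp2 at 0.50 and Usp18 at 0.50, while Ifit2, at -0.21, did not pass. The list averaged 0.11 to 0.39 above the uninjured mean on the injured arrays and -0.13 to 0.14 on the uninjured arrays. Injured array 3 was the lowest injured array for this list as for most class I probes, and array 1 the highest. The part of this list in the class I values was not tested.

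**Figure D4:**
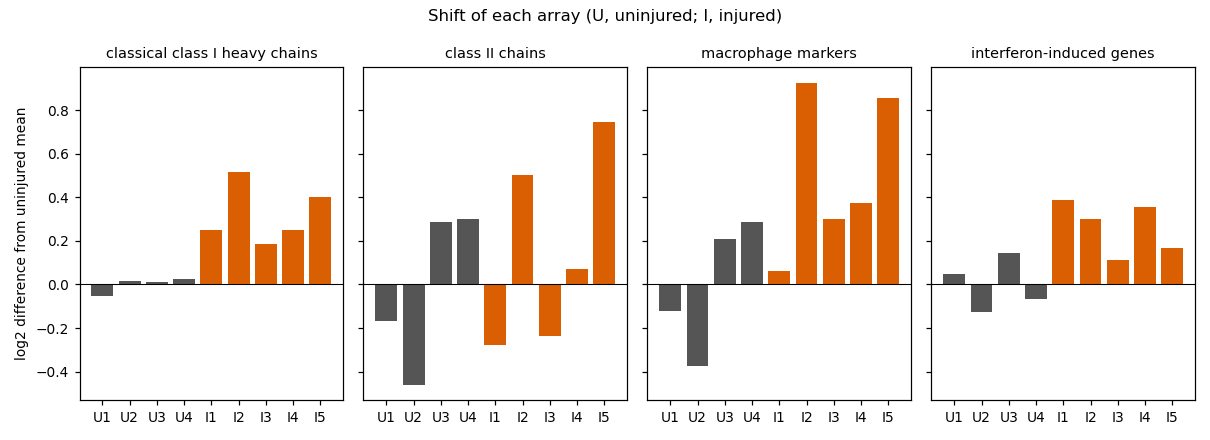
Shift of each array from the uninjured mean (y axis, log2; bars start at 0) for the classical class I heavy chains and the class II chains (median over probes), and for macrophage markers and interferon-induced genes (mean over genes). Classical class I is raised on all 5 injured arrays, from 0.19 to 0.52, while class II chains run from -0.28 to 0.75 there and from -0.46 to 0.30 on uninjured arrays.

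The within-slide values rest on 1 uninjured array, which was the lowest of its group for 8 of the 17 called rises. On that slide, H2-K1 differed by 0.55, H2-D1 by 0.56 and H2-Q8 by 0.47. All 17 called rises were positive there, but these arrays are among those that gave the calls. For 12 of the 17, every injured array was above every uninjured one, so a positive sign was fixed in advance. The shared sign is therefore no separate support. The dimmer H2-D1 probe was at -0.02 there and H2-M10.2 at -0.07. In that comparison 3 member probes passed, those of Psmb8 and the brighter H2-D1 probe. Between the slides that held 1 group each, slide and group cannot be told apart. Median centring left 3 member probes called, those of Psmb8 and H2-Q8, with H2-K1 at 0.27 (adjusted p = 0.0991) and H2-D1 at 0.30 (adjusted p = 0.0787).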

How the data were processed

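RNA from 9 DRG samples (Cy5) and a universal mouse reference (Stratagene, Cy3) was hybridised by the authors to Agilent two-colour arrays. Per the file headers, the deposited scanner intensity values are mean spot and median background signals on a linear scale, with a deposited log10 ratio made by Agilent's software. The authors also deposited a table of normalized log2 ratios; limma is named in the submitters' processing notes, and the background method is not given in the sources used here.

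Here, intensities were corrected by normexp (offset 50) and loess within each array in limma 3.58.1 (R 4.3.3). Spots flagged as non-uniform were left out, because with them kept 1 array's values were compressed (slope 0.823 against the authors' log2 values, against at least 1.00 without them). Repeated spots were averaged. Probes with Cy5 well above background on at least 4 arrays (31186) were fitted by lmFit and eBayes, injured against uninjured, with Benjamini-Hochberg adjustment over all of them. A call is an adjusted p under 0.05. The script was tested on simulated data. Between 70.2% and 78.4% of probes per array were above background, the number of arrays limits precision, and no member spot was saturated.

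Gene names are those in the files, updated by RefSeq accession where possible (55 of 66 member probes). Coordinates are on mm7, and promoters on GRCm38.p6. Genes named with values on every array were the classical class I chains, B2m, Tap1, Tap2, Tapbp, Psmb8, Psmb9, the class II chains, H2-DMa and Cd74, each by its brightest tested probe, plus up to 8 further called probes with the largest change. Members, gene lists and tests were chosen with earlier results of these data known. Array numbers follow accession order and do not pair samples. The values of 1 listed gene, which counts in its lists, are not reported here. The alternatives are given in the closing section.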

Additional observations from a re-analysis of the deposited data

Results flagged for a closer look

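Of 62 groups of arrays examined for the probes described by name, 2 held an array apart from the rest, where chance alone marks about 1 in 20. H2-DMb1 read 0.457 on uninjured array 2, against 1.57 to 1.70 on the other uninjured arrays. The same array was the lowest of its group for all 7 class II chain probes, for macrophage (-0.37) and endothelial (-0.30) markers and for B2m. The dim H2-Q10 probe that was above background on 2 of 4 uninjured arrays read -0.492 on uninjured array 1, against -0.30 to -0.28 on the others. The origin of either value was not tested.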

How the results depend on the processing

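No paired analysis was possible because the sample labels carry no replicate numbers, and the numbers used here follow accession order. Against 18 called member probes and 7338 called over all probes, median centring gave 3 and 3523, slide as a fixed block 3 and 1505, an adjusted p under 0.01 gave 5 and 3952, and a change above 1.5-fold as well gave 0 and 1627. Slide as a random block gave 24 and 10340. Member calls came to 11 with Agilent's own ratio and 11 with the methods' t-test (23 at an unadjusted p under 0.05), and between 8 (without uninjured array 1) and 21 (without injured array 3) leaving out 1 array at a time, with 11 without uninjured array 2 and 11 without injured array 2. Leaving out arrays 2 and 5, or 2 and 4, of the injured group, chosen after the data were seen, gave 9, and 6 with 4040 over all probes.

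Median log2 changes by role moved as follows. Under median centring they were -0.16 for the H2 names outside presentation and 0.10 for light chain and loading. Within the slide holding both groups they were 0.29 for light chain and loading, 0.48 for classical class I and 0.67 for the immunoproteasome. Without injured arrays 2 and 5 they were 0.10 for light chain and loading and 0.22 for classical class I. With the brightest probe per gene the immunoproteasome was 0.42, and with no filter on dim probes the other class I chains were 0.0939.

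The brightest Psmb8 probe was called in all 25 alternatives other than the stricter thresholds, H2-D1 in 24, H2-Q8 in 24 and H2-K1 in 22, while H2-Q2 was called in 7 and H2-Oa in 7. None of the 18 called probes changed sign in the 24 or 25 alternatives fitted for each. For 12 rises and 1 fall the groups do not overlap, so leaving out arrays could not have turned their sign. The H2-Bl probe that fell lost its call in 14 of 24. Differences near 0 that were never called did change sign. H2-Aa was -0.0739 with all spots, -0.112 with an offset of 0, -0.0374 with array weights, -0.27 without injured arrays 2 and 5, and from -0.0411 to 0.28 leaving out 1 array. H2-Eb1 was -0.00455 with weights, -0.17 without those arrays and from -0.0284 to 0.29 leaving out 1. Without injured arrays 2 and 5, H2-Ab1 was -0.0765, Cd74 -0.0149 and Tap2 -0.0235, and Tap2 ran from -0.000376 to 0.20 leaving out 1. Tapbp was -0.0243 under median centring. Arts1 was -0.00179 with an offset of 0, -0.0299 with Cy5 alone, -0.0591 with median centring, -0.0360 with weights, -0.0190 without injured arrays 2 and 5 and from -0.0359 to 0.0723 leaving out 1. The cause of these moves was not tested. Signal over background limits the 12 untested probes.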
